A study of Homo sapiens with 4 samples.

Results

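The genes described here are 32 human genes whose products fold, modify, translocate or degrade proteins in the endoplasmic reticulum (ER), or sense the folding load there. They were chosen by name, not by their measured change, although the choice was made with earlier results of these data known. All 32 had a row in the deposited table of 28274 genes, matched through their gene identifiers to GENCODE 29, and all 32 were among the 13172 genes that passed the filter of a mean of at least 1 FPKM (fragments or reads per kilobase of exon, scaled to a library total). The filter therefore removed none of them.

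RNA sequencing was done on 4 bulk RNA libraries of J-gammal, the name the labels give to this human cell line. FYB1 encodes an adaptor protein of T cells. In the tested condition FYB1 was knocked down, with sh-FYB1 in the titles of 2 libraries. The 2 control libraries carry NC in their titles, an abbreviation that is not spelled out, and their source name says that they had no treatment. Whether the controls carried a construct, and whether both knockdown libraries carried the same one, is not stated in the labels. No label says that the libraries of a group were separate cultures, so p-values measure only how far these libraries spread, and that spread may be technical.

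Proteins that enter the secretory pathway cross into the ER through the Sec61 channel and are folded by the Hsp70 chaperone BiP, the Hsp90 paralogue GRP94, the sugar-binding chaperones calnexin and calreticulin, and a family of disulfide isomerases. Chains that fail to fold are passed to a membrane ubiquitin ligase and destroyed by the proteasome. When unfolded chains accumulate, the sensors IRE1 and ATF6 induce genes of this machinery, partly through the transcription factor XBP1, in what is called the unfolded protein response. T cells pass their antigen receptor and other surface proteins through the same machinery.

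The libraries held 16693113 to 20251864 reads, recovered as whole numbers from the deposited FPKM values. FYB1 stood at 6.18 and 4.53 FPKM in knockdown libraries 1 and 2, against 17.6 and 20.1 FPKM in controls 1 and 2, and fell by both tests used here (limma-trend log2 fold change -1.65 ± 0.15 SE, adjusted p = 0.0398, and limma-voom -1.83 ± 0.15, adjusted p = 0.000419). All 14 T cell markers examined passed the filter, and by limma-voom 1 of them fell (CD3D, log2 fold change -0.79) and 1 rose (CD28, 0.82). MS4A1 and PAX5, markers of B cells, were at most 0.0386 FPKM in any library, and 6 myeloid markers summed to 0.282 and 0.425 FPKM in the knockdown libraries and 0.498 and 0.3998 FPKM in the controls. CD79A and MZB1, also listed as B and plasma cell markers, were nevertheless present at 11.1 to 24.5 and 35.7 to 68.9 FPKM and fell by limma-voom (log2 fold change -0.78 and -0.75). MZB1 encodes a cochaperone of the ER. Genes of the mitochondrial genome took 4.92% and 5.14% of reads in the knockdown libraries and 4.09% and 4.03% in the controls. The median of 77 cytosolic ribosomal protein genes was lower in the knockdown libraries by limma-trend (-0.41), and close to 0 after quantile normalization (-0.03). The part of these shifts in the results below was not tested.

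Most of the ER genes had lower levels after FYB1 knockdown, led by chaperones such as calreticulin (CALR), SDF2L1 and BiP (HSPA5). Their summed level was 1082 and 1259 FPKM in knockdown libraries 1 and 2, against 1912 and 1845 FPKM in controls 1 and 2. The ratio of the means was 0.623, where the summed FPKM of all tested genes had a ratio of 0.878. As a share of all recovered reads they took 0.525% and 0.533% in the knockdown libraries, against 0.691% and 0.699% in the controls. In bulk RNA, fewer cells of a type and less RNA per cell cannot be told apart. Mean FPKM was lower in the knockdown for 27 of the 32 genes, against 54.2% of all tested genes, and higher for 5. Both knockdown libraries lay below both controls for 22 ER genes, where 34.6% of all tested genes did so, and above both controls for 2, where 26.0% did. The other 8 overlapped between groups.

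The calls depended on the test. Limma-trend on log2(FPKM + 1) called none of the 32 genes at an adjusted p under 0.05 (Benjamini-Hochberg over all tested genes), with 0.205% of all tested genes called in either direction. Its lowest adjusted p among the ER genes was 0.0924, for HSPA5. At an unadjusted p under 0.05, limma-trend had 18 of the 32 lower, against 14.9% of all tested genes, and 2 higher, against 8.51%. Limma-voom on the recovered reads called 11 of the 32 lower in the knockdown, against 5.8% of all tested genes, and 1 higher, against 1.94%. Limma-trend was the main test here, and none of the 32 genes passed it, so the limma-voom calls are not the main result. Below, "fell" and "rose" are nevertheless used of genes that passed this limma-voom test, the second of the 2. Log2 fold changes are from limma-voom unless limma-trend is named. The median log2 fold change of the 32 genes was -0.33 by limma-voom and -0.31 by limma-trend, where the medians of all tested genes were -0.04 and -0.03.

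**Figure D1:**
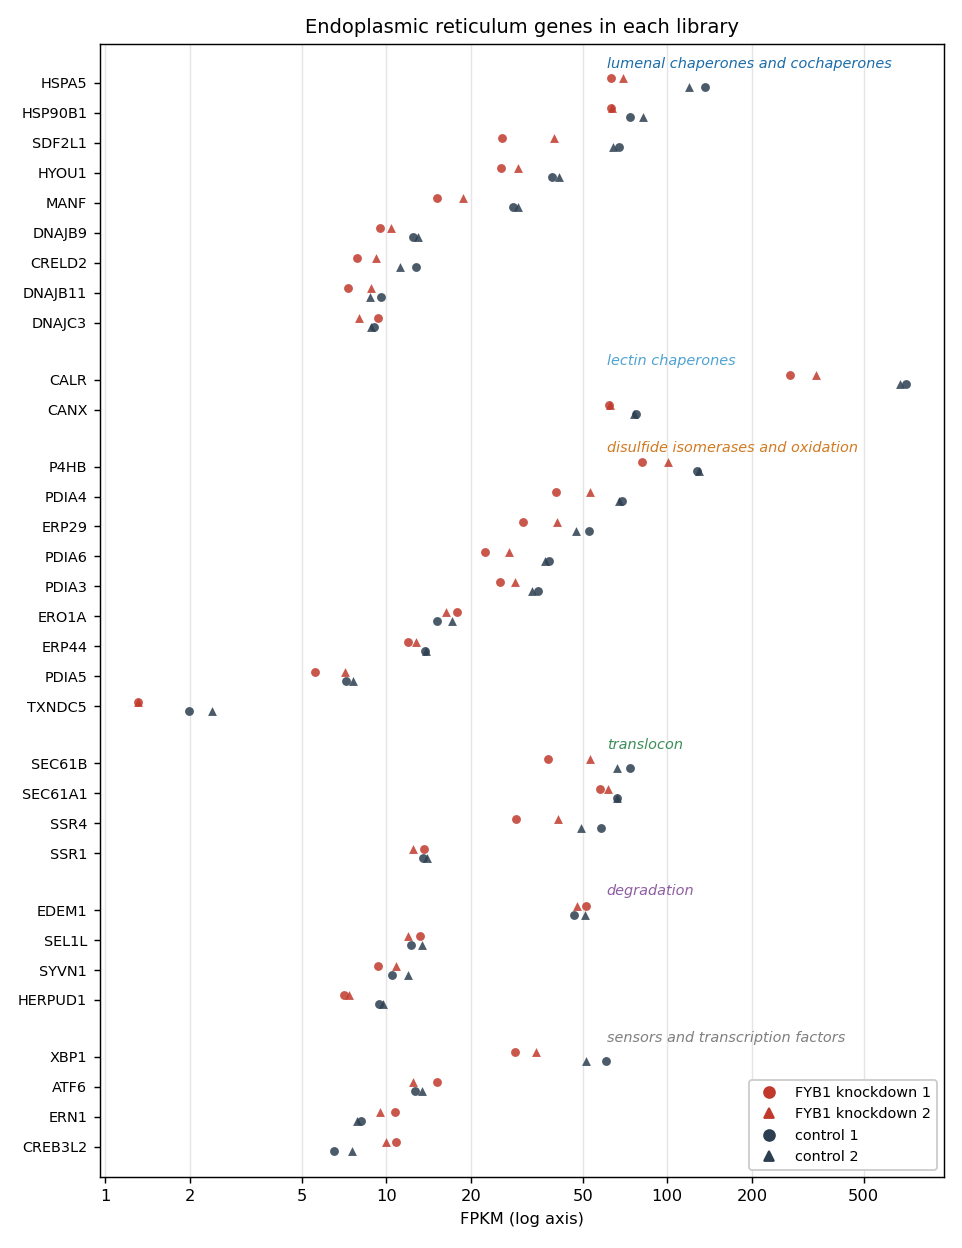
Level of each of the 32 ER genes in FPKM (log axis) in FYB1 knockdown libraries 1 and 2 (red) and controls 1 and 2 (dark), grouped by role. For 22 genes both red marks lie left of both dark marks, and for CREB3L2 and ERN1 both lie to the right.

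The 9 lumenal chaperones and cochaperones all had lower means in the knockdown libraries, and 5 fell. HSPA5 encodes BiP, the Hsp70 of the ER lumen, and lies on chromosome 9 at 125234853 to 125241330 on the minus strand (hg38). Its level was 63.3 and 69.5 FPKM in knockdown libraries 1 and 2, against 136 and 119 FPKM in controls 1 and 2. The groups were well separated, with knockdown levels at 0.521 of the control mean (log2 fold change -0.94 ± 0.13 SE, limma-voom adjusted p = 0.0049). The sequence before its start is shown because it carries the ER stress response element (ERSE), the site through which ATF6 acts on this gene together with the CCAAT-binding factor NF-Y. The 250 bases upstream of the RefSeq start (GRCh38.p14, chr9:125241344-125241593, minus strand) read as follows, with both boxes of the element in capitals.
HSPA5 upstream: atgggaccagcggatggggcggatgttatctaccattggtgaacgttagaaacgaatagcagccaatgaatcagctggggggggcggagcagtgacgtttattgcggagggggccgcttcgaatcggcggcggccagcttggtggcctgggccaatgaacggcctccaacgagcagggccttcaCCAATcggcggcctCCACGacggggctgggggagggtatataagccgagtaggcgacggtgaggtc

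SDF2L1, a partner of the Hsp40 protein ERdj3, was at 25.8 and 39.5 FPKM in the knockdown libraries, against 67.4 and 64.2 FPKM in the controls (log2 fold change -1.04 ± 0.17, limma-voom adjusted p = 0.0115). Its knockdown libraries differed from each other more than its controls did, yet both were below both controls. MANF, a small ER protein that binds BiP and stabilises its client complexes, was at 15.2 and 18.7 FPKM in the knockdown, against 28.2 and 29.5 FPKM in the controls, and fell by 0.77 on the log2 scale (± 0.14, adjusted p = 0.0137). HYOU1, the large Hsp70-like protein that exchanges the nucleotide of BiP, was at 25.7 and 29.4 FPKM in the knockdown, against 39.0 and 41.3 FPKM in the controls (-0.55 ± 0.13, adjusted p = 0.0313). BiP and its exchange factor thus both fell. CRELD2, a secreted ER-stress protein, was at 7.88 and 9.17 FPKM in the knockdown, against 12.8 and 11.2 FPKM in the controls, and sat next to the threshold (-0.49 ± 0.13, adjusted p = 0.049).

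The other 4 chaperones in this role did not pass the test. HSP90B1, which encodes GRP94, the Hsp90 of the ER, was at 63.1 and 63.8 FPKM in the knockdown, against 73.8 and 81.8 FPKM in the controls (log2 fold change -0.29, adjusted p = 0.158). DNAJB9 (ERdj4), an Hsp40 that represses IRE1, was at 9.54 and 10.4 FPKM in the knockdown, against 12.4 and 12.9 FPKM in the controls (-0.34, adjusted p = 0.121). Both genes had no overlap between groups. DNAJB11 (ERdj3), the Hsp40 that delivers unfolded chains to BiP, had 7.33 and 8.84 FPKM in the knockdown, against 9.61 and 8.73 FPKM in the controls, and DNAJC3 (p58IPK), another BiP cochaperone, had 9.38 and 7.98 FPKM in the knockdown, against 9.05 and 8.82 FPKM in the controls. Both of these overlapped between groups. Under quantile normalization HSP90B1 (0.0060) and DNAJC3 (0.0031) had limma-trend log2 fold changes just above 0, where the values without it were -0.29 and -0.04.

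CALR, which encodes the soluble lectin chaperone calreticulin, was the most abundant of the 32 genes per length of exon and had their largest decrease by both tests, although SDF2L1 was lower than CALR after quantile normalization (limma-trend -0.77 and -0.67) and without knockdown library 2 (limma-voom -1.35 and -1.34). It stood at 272.5 and 339 FPKM in knockdown libraries 1 and 2, against 708 and 674 FPKM in controls 1 and 2, from 13637 and 18842 reads in the knockdown and 31988 and 30702 in the controls. Knockdown levels averaged 0.443 of the control mean (log2 fold change -1.19 ± 0.16, limma-voom adjusted p = 0.00428), and both knockdown libraries were far below both controls. CANX, which encodes its membrane-bound relative calnexin, was at 61.8 and 62.7 FPKM in the knockdown, against 77.4 and 76.3 FPKM in the controls. The groups did not overlap, but the difference did not pass the test (-0.30 ± 0.13, adjusted p = 0.148), and it was 0.0034 by limma-trend after quantile normalization. CALR alone made up 25.2% and 26.9% of the summed FPKM of the 32 genes in the knockdown libraries, against 37.0% and 36.5% in the controls. Without it, the sum of the other 31 genes was 810.0 and 920.4 FPKM in the knockdown, against 1204 and 1171 FPKM in the controls, a ratio of 0.729 of the means.

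Of the 9 genes for disulfide isomerases and their oxidation, 8 had lower means in the knockdown and 2 fell. PDIA6, an isomerase that binds BiP, was at 22.4 and 27.4 FPKM in the knockdown libraries, against 38.0 and 36.7 FPKM in the controls (log2 fold change -0.59 ± 0.13, limma-voom adjusted p = 0.0277). PDIA4 (ERp72), an isomerase of the same family, was at 40.3 and 53.0 FPKM in the knockdown, against 69.2 and 67.6 FPKM in the controls (-0.57 ± 0.14, adjusted p = 0.0377). Both genes were separated between groups, with knockdown library 1 lower than knockdown library 2, and without that library PDIA4 stood at -0.37 and PDIA6 at -0.45, neither past the test. In PDIA6, 25.2% of the annotated exon bases also belong to ATP6V1C2 on the opposite strand, which was at most 0.410 FPKM in any library.

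The other 7 genes of this role did not pass the test. P4HB, the founding protein disulfide isomerase, was at 81.25 and 101 FPKM in the knockdown, against 128 and 130 FPKM in the controls (-0.51 ± 0.15, adjusted p = 0.059). ERP29, a redox-inactive relative, was at 30.8 and 40.4 FPKM in the knockdown, against 52.6 and 47.2 FPKM in the controls (-0.50 ± 0.14, adjusted p = 0.057). TXNDC5, a thioredoxin-domain isomerase and the least abundant of the 32 genes, was at 1.31 FPKM in both knockdown libraries, against 1.99 and 2.39 FPKM in the controls (-0.73 ± 0.21, adjusted p = 0.0519). These 3 genes did not overlap between groups and missed the threshold narrowly. TXNDC5 rested on 106 and 118 reads in the knockdown and 145 and 176 in the controls, and 60.6% of its exon bases are shared with the annotated readthrough gene BLOC1S5-TXNDC5, so its reads are uncertain. PDIA3 (ERp57), the isomerase that works with both lectin chaperones, was at 25.3 and 28.8 FPKM in the knockdown, against 34.65 and 33.0 FPKM in the controls (-0.32, adjusted p = 0.113). ERP44, which retains oxidases in the early secretory pathway, was at 12.0 and 12.8 FPKM in the knockdown, against 13.75 and 13.9 FPKM in the controls, and PDIA5 was at 5.56 and 7.11 FPKM in the knockdown, against 7.18 and 7.61 FPKM in the controls. ERO1A, the oxidase that recharges protein disulfide isomerase, overlapped between groups, with 17.8 and 16.3 FPKM in the knockdown, against 15.1 and 17.1 FPKM in the controls (0.08 ± 0.12, adjusted p = 0.696).

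**Figure D2:**
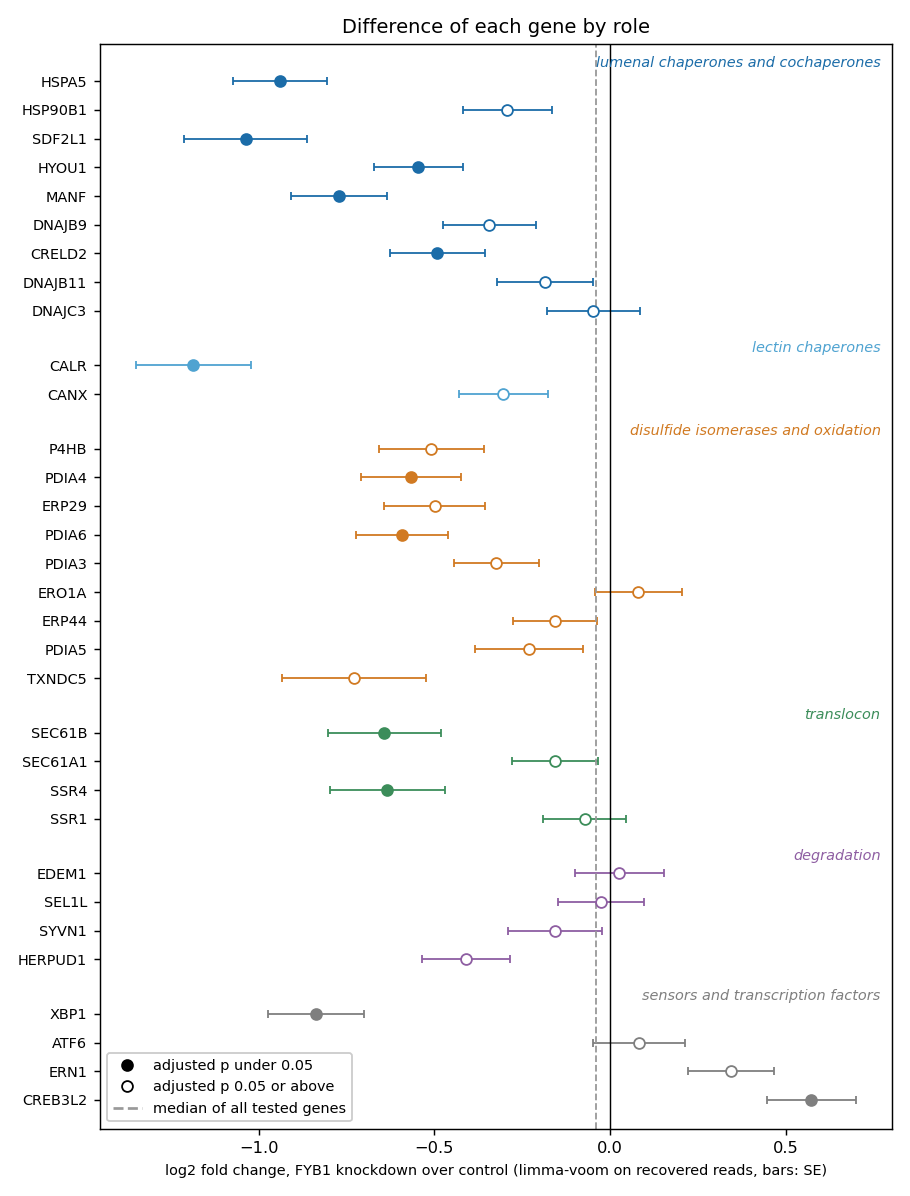
Log2 fold change of each ER gene, FYB1 knockdown over control, by limma-voom on recovered reads, with bars for the SE (2 libraries per group) and filled points for an adjusted p under 0.05. CALR lies farthest to the left at -1.19 and CREB3L2 farthest to the right at 0.57, and the dashed line marks the median of all tested genes at -0.04.

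Of the 4 translocon genes, SEC61B and SSR4 fell, and SEC61A1 and SSR1 did not pass the test. SEC61B, the beta subunit of the Sec61 channel, was at 37.6 and 53.1 FPKM in the knockdown libraries, against 73.6 and 66.4 FPKM in the controls (log2 fold change -0.64 ± 0.16, limma-voom adjusted p = 0.0368). SSR4, the delta subunit of the translocon-associated protein complex (TRAP), was at 29.05 and 40.9 FPKM in the knockdown, against 58.0 and 49.3 FPKM in the controls (-0.63 ± 0.16, adjusted p = 0.0412). For both, knockdown library 1 was clearly the lowest of the 4 libraries, and without it the log2 fold changes were -0.40 for SEC61B and -0.39 for SSR4, neither past the test. SEC61A1, the pore-forming subunit, was at 57.5 and 61.8 FPKM in the knockdown, against 66.3 and 66.4 FPKM in the controls (-0.16, adjusted p = 0.428). SSR1, the TRAP alpha subunit, was at 13.6 and 12.5 FPKM in the knockdown, against 13.5 and 13.9 FPKM in the controls (-0.07, adjusted p = 0.715). After quantile normalization, SEC61A1 (0.13) and SSR1 (0.03) were above 0 by limma-trend. SSR4 shares 6.06% of its exon bases with IDH3G on the opposite strand, and a pseudogene, SSR4P1, held 54 to 87 reads per library.

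None of the 4 degradation genes passed the test, which is near the 5.8% of all tested genes that fell and the 1.94% that rose. HERPUD1, which helps assemble the membrane ubiquitin ligase complex, was at 7.07 and 7.37 FPKM in the knockdown libraries, against 9.41 and 9.78 FPKM in the controls (log2 fold change -0.41 ± 0.12, limma-voom adjusted p = 0.0653), and was the one gene of this role with no overlap. EDEM1, which directs misfolded glycoproteins to degradation, was at 51.3 and 47.9 FPKM in the knockdown, against 46.5 and 51.0 FPKM in the controls (0.03 ± 0.13). SEL1L, the scaffold of the ligase, was at 13.2 and 12.0 FPKM in the knockdown, against 12.2 and 13.4 FPKM in the controls (-0.03 ± 0.12). These groups lay over each other. SYVN1, the ligase HRD1 itself, was at 9.36 and 10.8 FPKM in the knockdown, against 10.5 and 12.0 FPKM in the controls (-0.16 ± 0.13), and also overlapped. Its exons share 7.24% of their bases with FAU on the same strand, a gene at 213 and 304 FPKM in the knockdown and 385 and 319 FPKM in the controls, so part of its reads is uncertain. The summed level of the 4 genes was 81.0 and 78.1 FPKM in the knockdown, against 78.65 and 86.2 FPKM in the controls, a ratio of means of 0.965. The ratio was 0.633 for the 9 lumenal chaperones and 0.530 for the 11 lumenal and lectin chaperones, a sum dominated by CALR. Over all tested genes it was 0.878. Median exon length was 6127 bases for the 4 degradation genes and 4695 bases for the 9 lumenal chaperones, and its part in this difference was not tested. EDEM1 made up most of the degradation sum.

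Of the 4 sensors and transcription factors, 1 fell and 1 rose. XBP1, the transcription factor made active by IRE1 splicing, was at 28.6 and 34.15 FPKM in knockdown libraries 1 and 2, against 60.7 and 51.4 FPKM in controls 1 and 2 (log2 fold change -0.84 ± 0.14, limma-voom adjusted p = 0.00943), with a wide gap between groups. The table gives 1 value per gene, so the spliced and unspliced forms were not analysed here. CREB3L2, a membrane-bound transcription factor related to ATF6, was at 10.9 and 10 FPKM in the knockdown, against 6.50 and 7.54 FPKM in the controls, and was the one ER gene that rose (0.57 ± 0.13, adjusted p = 0.0285). ERN1, which encodes IRE1 alpha, was at 10.8 and 9.50 FPKM in the knockdown, against 8.11 and 7.84 FPKM in the controls, above both controls but not past the test (0.34 ± 0.12, adjusted p = 0.0993). ATF6 was at 15.2 and 12.4 FPKM in the knockdown, against 12.6 and 13.4 FPKM in the controls, and overlapped (0.08 ± 0.13, adjusted p = 0.71).

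Ratios were taken within 8 pairs of genes with related roles. The ratio of CALR to CANX was 4.41 and 5.41 in the knockdown libraries, against 9.15 and 8.84 in the controls. That of HSPA5 to HSP90B1 was 1.00 and 1.09 in the knockdown, against 1.84 and 1.46 in the controls. The FPKM of these genes, per base of all annotated exons, was thus about level in the knockdown. XBP1 over ATF6 was 1.88 and 2.75 in the knockdown, against 4.81 and 3.84 in the controls. SDF2L1 over DNAJB11 averaged 3.997 in the knockdown and 7.18 in the controls. SEC61B over SEC61A1 averaged 0.757 in the knockdown and 1.05 in the controls, and SSR4 over SSR1 was 2.13 and 3.27 in the knockdown, against 4.30 and 3.535 in the controls. HERPUD1 over SEL1L had means of 0.575 in the knockdown and 0.749 in the controls, and P4HB over PDIA3 had means of 3.36 in the knockdown and 3.81 in the controls. For all 8 pairs both knockdown ratios were below both control ratios. In each pair the first gene was the one with the lower log2 fold change, so the shared direction follows from how the pairs were set. How often other gene pairs separate in this way was not computed. Except in P4HB over PDIA3, the first gene also had the shorter exon length, and the part of length in the ratios was not tested. An exact two-sided permutation test gave p = 0.333 for each, which is the smallest that 2 against 2 libraries allow (0.333 after adjustment over 8 pairs). The pairs were chosen with earlier results known, and ratios within a library do not depend on the library total.

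**Figure D3:**
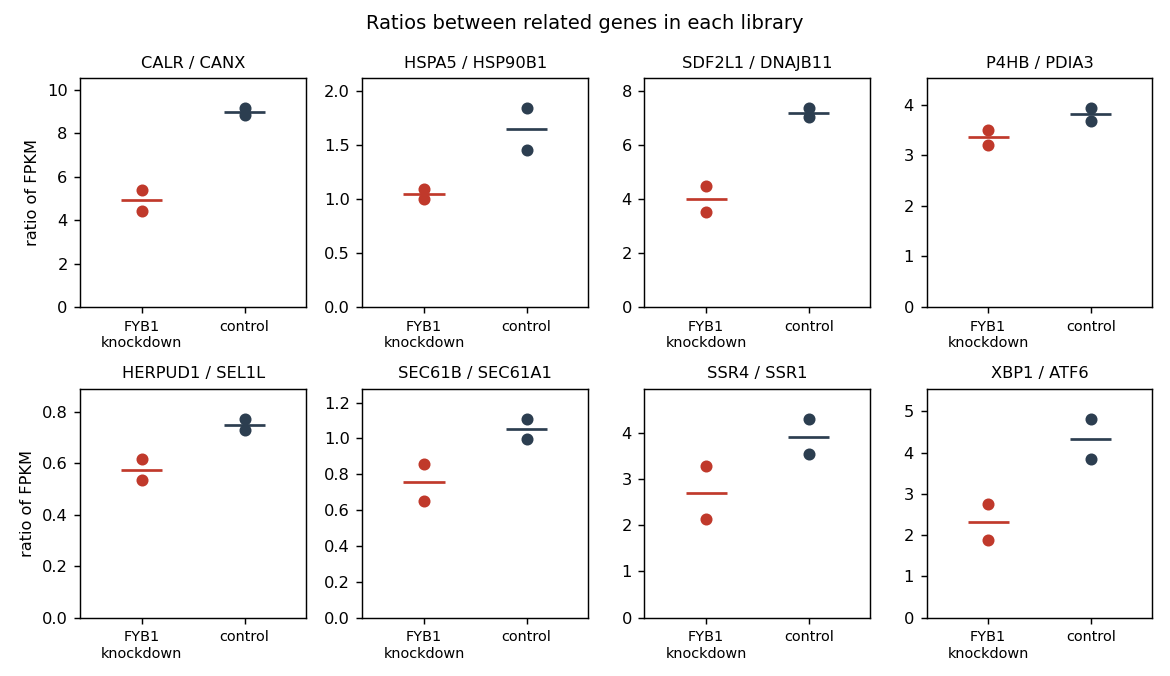
Ratio of FPKM within each library for 8 pairs of ER genes, FYB1 knockdown on the left and control on the right, with points for libraries and lines for group means. Both knockdown points lie below both control points in every panel, with CALR over CANX at a mean of 4.91 in the knockdown and 8.99 in the controls.

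Genes with a shorter merged exon length, all annotated exon bases of a gene counted once, had the larger decreases. Across the 32 genes, Spearman's rho between merged exon length and the limma-trend log2 fold change was 0.808, and across all 13172 tested genes it was 0.221. Both are descriptions across genes of the same 4 libraries, and genes are not independent replicates. The 5 genes with higher means (EDEM1, ERO1A, ATF6, CREB3L2 and ERN1) had 6758 to 10864 exon bases, whereas CALR had 2714, SDF2L1 1099 and HSPA5 3908. Of the 7 ER genes with over 2000 and up to 4000 bases, 5 fell by limma-voom, where 9.37% of all tested genes of that length did. At up to 2000 bases 2 of 2 fell, against 6.76% of all tested genes of that length. At over 4000 and up to 6000 bases 3 of 14 fell, against 5.5%, and at over 6000 and up to 8000 bases 1 of 5, against 3.5%. Of the 4 with more than 8000 bases none fell, which is near the 1.88% of all genes of that length. The log2 values were then corrected for their smooth dependence on exon length and on GC content in each library, and limma-trend on the corrected values called 6 ER genes lower, against 1.85% of all genes in that fit: HSPA5 (log2 fold change -0.85), HYOU1 (-0.49), SDF2L1 (-0.82), MANF (-0.57), CALR (-0.97) and XBP1 (-0.69). The median of the 32 genes was then -0.29, with 0.0046 over all genes, and ERO1A (-0.02) and ATF6 (-0.03) had turned below 0. The relation with length among the 32 genes remained at a rho of 0.715.

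**Figure D4:**
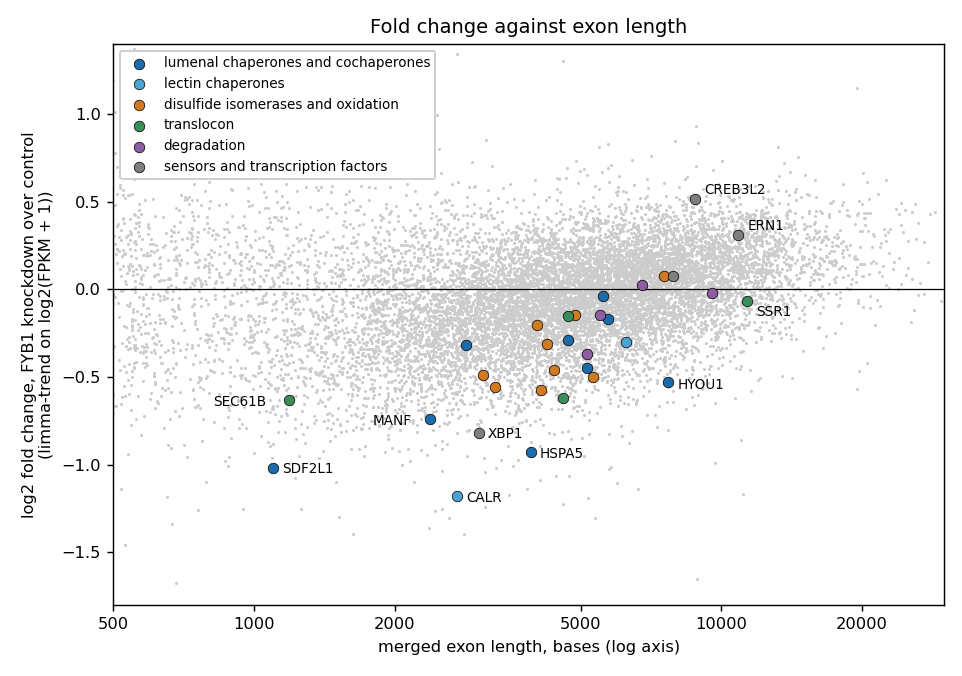
Limma-trend log2 fold change, FYB1 knockdown over control, against merged exon length in bases (log axis) for all tested genes within the axes (grey) and the 32 ER genes (coloured by role). SDF2L1, MANF, CALR, XBP1 and HSPA5 lie below -0.7 at under 4000 bases, and CREB3L2 and ERN1 lie above 0.3 at over 8000 bases.

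The ER genes differ in whether their promoters hold response elements of the unfolded protein response. RefSeq promoters (GRCh38.p14, 250 bases before to 50 after each start) were available for 31 of the 32 genes, PDIA3 being the exception. Exact matches on either strand were sought to ERSE (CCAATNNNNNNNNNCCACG), ERSE-II (ATTGGNCCACG) and the core of the unfolded protein response element bound by XBP1 and ATF6 (TGACGTG). ERSE was found in 27 of 35116 promoters (0.0769%), and ERSE-II in 19 (0.0541%). A gene with several annotated starts has several promoters. Counted as genes, 7 ER genes had a promoter with ERSE and 3 had one with ERSE-II. The core was found in 692 promoters (1.97%), and the ER genes with it were SEC61A1, TXNDC5, HYOU1 and SSR4. These elements were described in part from such genes, so their presence here is a description and not a site shown to be used. Windows of 30 bases are given for the genes with ERSE or ERSE-II, on the gene's strand with both boxes in capitals, because these 10 genes include most of the chaperones that fell. Where the match is on the opposite strand, the boxes read CGTGG before ATTGG for ERSE and CGTGG before CCAAT for ERSE-II.
HSPA5, ERSE, chr9:125241385-125241414, minus strand: cttcaCCAATcggcggcctCCACGacgggg
CALR, ERSE, chr19:12938379-12938408, plus strand: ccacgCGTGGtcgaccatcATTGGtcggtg
CANX, ERSE, chr5:179698773-179698802, plus strand: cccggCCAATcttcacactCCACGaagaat
HSP90B1, first ERSE, chr12:103930211-103930240, plus strand: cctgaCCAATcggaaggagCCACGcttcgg
HSP90B1, second ERSE, chr12:103930316-103930345, plus strand: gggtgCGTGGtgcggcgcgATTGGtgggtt
PDIA6, ERSE, chr2:10812847-10812876, minus strand: ccggaCCAATgagccgcagCCACGgcttgg
XBP1, ERSE, chr22:28800597-28800626, minus strand: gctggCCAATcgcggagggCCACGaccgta
CRELD2, ERSE, chr22:49918549-49918578, plus strand: cctctCGTGGcgaactcggATTGGgccata
HERPUD1, ERSE-II, chr16:56932016-56932045, plus strand: cggacgccgATTGGgCCACGttgggagagt
HYOU1, upstream ERSE-II, chr11:119057370-119057399, minus strand: gccccgtgaCGTGGtCCAATcccaggccga
HYOU1, downstream ERSE-II, chr11:119057264-119057293, minus strand: ggcctgggaCGTGGtCCAATgagtacgcgc
SDF2L1, ERSE-II, chr22:21642105-21642134, plus strand: cctcggaagCGTGGaCCAATcaaaaccctc

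All 10 ER genes with ERSE or ERSE-II had lower means in the knockdown, and 7 of them fell (HSPA5, CALR, PDIA6, XBP1, CRELD2, HYOU1 and SDF2L1), with a median log2 fold change of -0.57. Of the 21 ER genes with a promoter and no exact match to either element, 4 fell (MANF, SEC61B, SSR4 and PDIA4) and CREB3L2 rose, with a median of -0.16. Inexact matches were not sought, so these genes may still hold such an element. The element did not separate the genes fully: HSP90B1 and CANX carry ERSE and HERPUD1 carries ERSE-II, and none of these 3 passed the test. The 17 tested genes outside the list whose promoter holds either element had a median of -0.13, and 3 of them fell, namely NUCB1 (-0.60), SHCBP1 (-0.65) and TMEM120A (-0.60), which are named after their values were seen. The 8685 other tested genes with a promoter and neither element had a median of -0.06, with 565 that fell and 183 that rose. The ER genes with an element had a median exon length of 4398 bases, against 5303 bases for those without, and the difference between the 2 sets of ER genes was not tested.

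**Figure D5:**
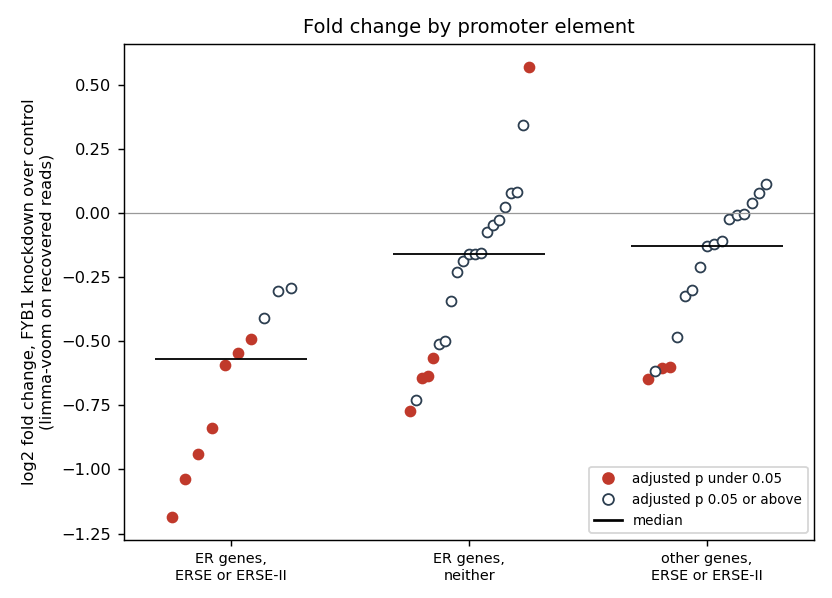
Limma-voom log2 fold change, FYB1 knockdown over control, for 10 ER genes with ERSE or ERSE-II, 21 ER genes with neither, and 17 other tested genes with ERSE or ERSE-II. Lines mark medians of -0.57, -0.16 and -0.13, and filled points mark an adjusted p under 0.05.

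Other genes of the same pathway, from lists chosen with earlier results known, had lower means in 74 of 100 cases, against 54.2% of all tested genes. Of 107 such genes with values 100 were tested, 26 had higher means in the knockdown, 7 fell and none rose by limma-voom, a share close to the 5.8% of all tested genes that fell, and limma-trend called none (23 lower and 1 higher at an unadjusted p under 0.05). Their median limma-trend log2 fold change was -0.14. In the retrieval and exit list 1 of 8 fell, namely KDELR2, a receptor that returns escaped ER chaperones, with 12.1 and 13.1 FPKM in the knockdown libraries, against 21.65 and 22.03 FPKM in the controls (-0.79, limma-voom adjusted p = 0.00689). Among translocon and targeting genes 2 of 21 fell, SEC61G (-0.76), the gamma subunit of the Sec61 channel, and SRPRB (-0.62), a subunit of the signal recognition particle receptor. Among chaperones and folding enzymes 1 of 19 fell, the prolyl isomerase PPIB (-0.69), and among oxidation genes 1 of 13, the peroxiredoxin PRDX4 (-0.68). In degradation 2 of 26 fell, SELENOS (-0.58), which recruits the extracting ATPase to the membrane, and VCP (-0.49), that ATPase.

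Where limma-voom called 5.8% of all tested genes lower and 1.94% higher, none of the 13 tested sensors, their proteases and relatives passed it. ATF4, the factor whose translation rises when PERK is active, was the most abundant of them, at 171 and 227.5 FPKM in the knockdown libraries, against 278 and 265 FPKM in the controls (-0.46, limma-voom adjusted p = 0.09). TRIB3, a pseudokinase induced by ATF4, was at 45.8 and 56.0 FPKM in the knockdown, against 40.5 and 42.9 FPKM in the controls (0.28, adjusted p = 0.185). Their groups did not overlap, with ATF4 lower and TRIB3 higher in the knockdown.

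The calls of the ER genes rested unequally on single libraries. In fits that left out 1 library at a time, CALR and SDF2L1 passed limma-voom in all 4, with highest adjusted p-values of 0.0368 and 0.0436. HSPA5 and MANF passed in 3 of 4, XBP1, SEC61B and SSR4 in 2, and PDIA6, PDIA4, HYOU1, CRELD2 and CREB3L2 in 1. Without knockdown library 1 the number that fell was 3 (HSPA5, SDF2L1 and CALR), against 0.562% of all tested genes, and without control 1 it was also 3 (SDF2L1, MANF and CALR), against 0.828%. Without control 2 it was 7, against 2.8%, and without knockdown library 2 it was 17, against 19.7%. Knockdown library 1 was lower than knockdown library 2 for 24 of the 32 ER genes (75.0%), as it was for 58.0% of all tested genes. Of the 11 genes that fell, all had the lower value in knockdown library 1.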

How the data were processed

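Total RNA (1 µg per library, Trizol) was converted to TruSeq libraries, per the labels' protocols, and HISAT2 2.0.5 and hg38 are named in the submitters' processing notes. How reads were counted, and with which annotation and strand setting, was not given in the sources used here. The values the authors deposited were identified as FPKM: times the merged exon length in GENCODE 29, 100% were whole numbers of reads within 0.001 read, given library totals of 18436617 and 20480491 in the knockdown and 16648943 and 16789004 in the controls. These totals are not sums of reads: their relative sizes (1.02 and 1.14 in the knockdown, 0.924 and 0.9315 in the controls) equal median-of-ratios size factors computed from the recovered reads, so the FPKM and fold changes are relative to that scaling.

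From these, limma-trend (limma 3.58.1, R 4.3.3) was run on log2(FPKM + 1), a scale that understates the change of low genes, over genes averaging 1 FPKM or more, with Benjamini-Hochberg adjustment and a threshold of 0.05. This was the main test. Limma-voom was run as a second test on recovered reads, with those totals as library sizes. Both were also run on simulated counts, with larger changes than most of the ER genes had and no dependence on exon length. That run therefore cannot decide which of the differing calls here are right. The members, lists, pairs and named genes were chosen with earlier results of these data known; all 32 genes are given, and of the other pathway lists up to 4 genes past limma-voom, otherwise the 2 most abundant. Alternatives were a replicate block, other scalings, filters and pseudocounts, each library left out, and a correction for exon length and GC content (mgcv 1.9.3). Library numbers were not shown to pair the samples. Protein sequences were not analysed here.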

Additional observations from a re-analysis of the deposited data

How the results depend on the processing

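With 2 libraries per group, 0 ER genes passed limma-trend (18 lower and 2 higher at an unadjusted p under 0.05) and the call counts moved with nearly every setting. All genes called numbered 27 by limma-trend and 1019 by limma-voom; ER genes called lower numbered 0 and 11, and higher 0 and 1. A replicate block gave 781 genes in all and 4 ER genes lower and 1 higher by limma-trend, and 1072, 11 and 1 by limma-voom; numbers 1 and 2 share only a label. Because same-numbered libraries deviated in opposite senses (correlation -0.21), a crossed block was added after seeing the data: it gave 1910 genes, 13 ER genes lower and 1 higher by limma-trend, and 4007, 19 and 2 by limma-voom. Quantile normalization called 45 genes and 1 ER gene lower, with an ER median of -0.17. Using the sum of reads as library total called 76 and 2, with an ER median of -0.19 against an all-gene median of 0.08. No filter called 0 genes (FYB1 log2 fold change -1.65, adjusted p = 0.264), a mean of at least 5 FPKM 181 and 4 ER genes lower, and the length and GC correction 385 and 6. Leaving out 1 library gave 0 to 406 genes, 0 to 1 ER genes lower and FYB1 at -1.84 to -1.46 by limma-trend. By limma-voom it gave 102 genes (3 ER genes lower) without knockdown 1, 3877 (17 lower, 2 higher, ER median -0.41) without knockdown 2, 136 (3 lower) without control 1 and 496 (7 lower) without control 2. Pseudocounts of 0.1 and 5 called no ER gene. Some signs turned. HSP90B1, CANX and SEC61A1 stood at -0.29, -0.30 and -0.15 by limma-trend, and the other genes that turned lay nearer 0. Under quantile normalization the turned genes were HSP90B1 (0.0060), DNAJC3 (0.0031), CANX (0.0034), SEC61A1 (0.13), SSR1 (0.031) and SEL1L (0.066). With the sum of reads they were DNAJC3 (0.084), SSR1 (0.061) and SEL1L (0.10), and with the length and GC correction ERO1A (-0.022) and ATF6 (-0.032). Leaving out 1 library in limma-trend gave ranges of -0.15 to 0.064 for DNAJC3, -0.0096 to 0.16 for ERO1A, -0.040 to 0.091 for EDEM1, -0.091 to 0.044 for SEL1L and -0.058 to 0.21 for ATF6. In limma-voom the turned values were EDEM1 (-0.024) and ATF6 (-0.062) without knockdown 1, DNAJC3 (0.071) and SEL1L (0.047) without knockdown 2, ERO1A (-0.010) and EDEM1 (-0.040) without control 1, and SEL1L (0.044) without control 2. The cause was not tested. Of all ER gene values under alternatives, 504 kept direction and side of the threshold, 110 moved past it and 25 changed sign.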
